A study of Mus musculus with 32 samples.

Results

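Subcutaneous tumors of an MC38 line resistant to anti-PD-1 were compared with tumors of the parental MC38 line across all measured genes, with 12 resistant and 13 parental tumors among the 32 libraries of the series. The tumors were chosen by the line and tissue in the labels, and no measured value entered the choice. MC38 is a mouse colon adenocarcinoma cell line. Resistant and parental cells were each grown in C57BL6/J mice labelled untreated, so the comparison concerns the lines and not a response to antibody. The other 7 libraries are cultured cells, 5 resistant and 2 parental, and share no library with the tumors. No sample label gives a clone, and none pairs the tumors. Nothing in the labels says that tumors of a line came from separate implantations, so p-values measure the spread between these samples. Each tumor held host cells as well as MC38 cells, and in bulk RNA fewer cells of a type and less RNA per cell cannot be told apart.

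PD-1 is an inhibitory receptor on activated T cells, and antibodies that block it release T cells to attack tumor cells. Tumors can escape by losing antigen display, by keeping immune cells out or inactive, or by changes in the tumor cells and their matrix. Cancer lines often gain or lose chromosome segments, which changes the dosage of many neighbouring genes together.

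The labelled cell type was checked against 16 markers of colon epithelium. Of these, 1 could be tested, Cdh1, the adhesion protein E-cadherin, at 1.22 ± 0.48 TPM in resistant and 1.56 ± 0.46 TPM in parental tumors (SD, n = 12 and n = 13, as for all means below). TPM is a transcript's share of its library, scaled for transcript length. The 16 markers together summed to 2.80 to 14.7 TPM in resistant and 3.63 to 18.5 TPM in parental tumors, so the epithelial program that the label names was nearly absent from tumors of both lines.

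The libraries differed in base composition. A GC index, the level of GC-rich genes minus that of GC-poor genes on the log2 scale, ran from -0.537 to 0.238 in resistant tumors and from -0.268 to 0.838 in parental tumors, with 4 parental tumors above 0.5. Mitochondrially encoded genes took 7.20 to 14.4% of TPM in resistant tumors and 4.65 to 10.6% in parental tumors. The median within-line SD of log2(TPM + 1) over genes was 0.321 in resistant and 0.403 in parental tumors, and 0.289 in parental tumors without those 4. The part of base composition in a single gene's difference was not tested. Counts of list members are therefore mostly followed by the counts with the index in the model.

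Resistant tumors differed from parental tumors in many genes by small amounts. Of 12095 genes with at least 1 TPM in 12 or more tumors, 1969 were higher (16.3%) and 1678 lower (13.9%), 30.2% in all, at an adjusted p under 0.05 from limma on log2(TPM + 1). The shares of 16.3% and 13.9% are the background for counts of list members in tumors without the GC index. With the GC index in the model 2140 of the 12095 genes were higher and 1809 lower, the background for counts with that index. The median log2 difference was 0.52 among the higher genes and -0.58 among the lower ones, against 0.04 over all genes tested. Differences under 1.5-fold made up 2073 of the calls (56.8%), while 186 higher and 242 lower genes passed 2-fold. With the GC index in the model 2422 of the 3647 calls were kept in the same direction, and 2620 were kept without the 4 parental tumors of high index.

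Small differences could still separate the lines tumor by tumor. In 60 genes every resistant tumor was above every parental one (0.496% of genes tested), and in 66 every resistant tumor was below (0.546%). These are 1.04% of genes, and 49 of the 126 differed by less than 2-fold. By mean level, 11.8% of genes under 5 TPM were higher and 14.04% lower. The higher genes outnumbered the lower ones in the 3 classes between 5 and 500 TPM, with 15.04% higher and 12.7% lower at 5 to 20 TPM, 18.2% and 12.8% at 20 to 100 TPM, and 19.5% and 17.2% at 100 to 500 TPM. At 500 TPM or more 17.7% were higher and 27.0% lower. Differences of 2-fold or more were found in 6.47% of genes under 5 TPM, against 1.37% of those at 100 to 500 TPM. The genes called higher summed to 226000 TPM in resistant and 159400 TPM in parental tumors, and those called lower to 150600 TPM in resistant and 223900 TPM in parental tumors.

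Transcription factors stood among the larger rises. Sox5, an HMG-box factor of cartilage and nerve development, was at 13.8, 24.7 and 30.3 TPM in resistant tumors, against 0.78, 4.47 and 18.6 TPM in parental tumors, the values being the lowest, median and highest tumor. A single parental tumor lay inside the resistant range (log2 difference 2.14, SE 0.24, limma adjusted p = 2.5e-07). Zfp532, a zinc finger protein, was at 29.4, 39.0 and 47.3 TPM in resistant tumors, against 8.36, 14.9 and 20.9 TPM in parental tumors. The lines did not overlap (log2 difference 1.34, SE 0.13, limma adjusted p = 2.32e-08). Of 8 SOX factors tested 3 rose and none fell (3 higher and 1 lower with the GC index in the model), with 1 lower at an unadjusted p under 0.05 and 1 by the rank-sum test. Sox4, which drives progenitor growth and invasion in many tumors, averaged 66.7 ± 10.9 TPM in resistant and 23.6 ± 8.94 TPM in parental tumors, and the stem cell factor Sox2 averaged 15.6 ± 5.30 TPM in resistant and 10.3 ± 4.59 TPM in parental tumors.

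Secreted proteins and a growth factor receptor were among the named rises. Inhba encodes the activin A subunit, a ligand of the TGF-beta family, and was at 62.5, 95.9 and 143 TPM in resistant tumors, against 14.9, 32.1 and 41.7 TPM in parental tumors. The lines did not overlap (log2 difference 1.68, SE 0.17, limma adjusted p = 4.55e-08). Thbs2, the matricellular protein thrombospondin 2, was at 45.1, 54.0 and 65.4 TPM in resistant tumors, against 18.3, 23.1 and 38.3 TPM in parental tumors. Again every resistant tumor lay above every parental tumor. Pdgfrb, the PDGF receptor of pericytes and fibroblasts, was at 141, 171 and 218 TPM in resistant tumors, against 30.9, 43.2 and 137 TPM in parental tumors, also without overlap (log2 difference 1.79, SE 0.17, limma adjusted p = 1.87e-08). Of 9 pericyte markers tested, Pdgfrb among them, 5 were higher and 1 lower (4 higher and 0 lower with the GC index in the model). The 10 listed pericyte markers summed to 361 to 563 TPM in resistant and 163 to 345 TPM in parental tumors, and their part in the Pdgfrb difference was not tested. Cultures, which hold no host pericytes, had Pdgfrb at 20.7 TPM in resistant cultures and 5.14 TPM in parental cultures. Of the pericyte markers 4 were high enough to test in culture, with 1 higher and 0 lower, so cultured cells expressed part of the list.

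Other named rises encode surface and secreted proteins of varied roles, and the lists of such genes were mixed. Of 12 ephrins and Eph receptors 2 were higher and 1 lower, of 9 Slit, Robo, netrin and UNC5 genes 2 and 1, and of 22 ADAM and ADAMTS proteases 3 and 5. With the GC index in the model these became 2 higher and 1 lower, 2 higher and 1 lower and 5 higher and 3 lower. Plxnc1, a semaphorin receptor, averaged 33.5 ± 12.4 TPM in resistant and 11.1 ± 11.4 TPM in parental tumors, with overlap. Mmp16, a membrane-bound matrix metalloproteinase, averaged 12.1 ± 3.76 TPM in resistant and 2.48 ± 1.80 TPM in parental tumors, without overlap. Flrt3, an adhesion protein that binds UNC5 receptors and latrophilins, averaged 6.995 ± 2.32 TPM in resistant and 1.40 ± 1.11 TPM in parental tumors. In each of these genes the lowest resistant tumor lay above the parental median. Thsd7a, a membrane protein with thrombospondin repeats, averaged 8.78 ± 3.46 TPM in resistant and 1.42 ± 1.03 TPM in parental tumors. Lbp, which carries bacterial lipopolysaccharide to its receptor, averaged 36.8 ± 13.7 TPM in resistant and 11.01 ± 9.86 TPM in parental tumors. Neither was seen at 1 TPM in the culture means, where Lbp was at 0.11 TPM in resistant cultures and 0.21 TPM in parental cultures.

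Further named rises act inside the cell or in transport, and the lists of myosins and solute carriers were mixed too. Of 29 myosins 6 were higher and 5 lower, and of 186 solute carriers 23 and 16, with 8 higher and 5 lower and 19 higher and 21 lower with the GC index in the model. Mical2, a monooxygenase that oxidizes actin filaments, was at 12.4, 16.7 and 20.4 TPM in resistant tumors, against 5.48, 6.45 and 12.1 TPM in parental tumors. The highest parental tumor lay just under the lowest resistant one (log2 difference 1.14, SE 0.11, limma adjusted p = 1.97e-08). Pfn2, an actin monomer binder of the profilin family, averaged 81.4 ± 15.0 TPM in resistant and 25.5 ± 13.7 TPM in parental tumors, with overlap. Ank1, which links membrane proteins to spectrin, averaged 5.01 ± 1.13 TPM in resistant and 1.45 ± 0.56 TPM in parental tumors. Slc39a4, the zinc importer ZIP4, averaged 24.6 ± 7.35 TPM in resistant and 5.99 ± 2.58 TPM in parental tumors. The last 2 separated the lines, as did Acsm3, a medium-chain acyl-CoA synthetase of mitochondria (19.6 ± 5.45 TPM in resistant and 4.93 ± 2.93 TPM in parental tumors). Some risers are known from distant tissues. Strc encodes stereocilin of inner ear hair bundles and was at 4.68, 7.92 and 12.9 TPM in resistant tumors, against 0.42, 1.04 and 2.87 TPM in parental tumors. Cfap61, a gene of the sperm flagellum, was at 15.4, 104 and 203 TPM in resistant tumors, against 4.51, 25.1 and 61.1 TPM in parental tumors. Strc separated the lines, whereas Cfap61 varied widely among resistant tumors and overlapped. Rnf165, a ubiquitin ligase, averaged 13.5 ± 6.43 TPM in resistant and 2.89 ± 2.67 TPM in parental tumors, and Pced1b averaged 7.63 ± 1.74 TPM in resistant and 1.88 ± 1.31 TPM in parental tumors.

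The falls included surface and immune-related genes. Cd34, a sialomucin of progenitor cells and vessels, was at 14, 18.9 and 26.4 TPM in resistant tumors, against 82.7, 121 and 163 TPM in parental tumors. The lines stood far apart (log2 difference -2.59, SE 0.11, limma adjusted p = 7.83e-16). Cultures held it at 42.4 TPM in resistant cultures and 205 TPM in parental cultures, and of 14 markers of blood endothelium none was called in tumors by limma, with 2 higher and 0 lower at an unadjusted p under 0.05 and the same counts by the rank-sum test. Il1rl1, the receptor of interleukin 33, averaged 8.87 ± 5.04 TPM in resistant and 64.7 ± 40.2 TPM in parental tumors, with overlap. Ifitm1, an interferon-induced membrane protein, averaged 21.2 ± 7.63 TPM in resistant and 154 ± 83.1 TPM in parental tumors. Slpi, a secreted inhibitor of leukocyte proteases, was at 0, 1.27 and 3.43 TPM in resistant tumors, against 3.97, 14.6 and 40.1 TPM in parental tumors. Ifitm1 and Slpi did not overlap between the lines. Cd79a, a signaling chain of the B cell receptor, was at 0.34, 1.21 and 2.94 TPM in resistant tumors, against 3.12, 8.56 and 15.1 TPM in parental tumors, without overlap.

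Members of the calcium-binding S100 family and of the cornified layer of skin were among the named falls. S100a4, linked to cell motility, was at 145, 228 and 283 TPM in resistant tumors, against 659.8, 1052 and 1856 TPM in parental tumors. No tumor crossed between the lines (log2 difference -2.41, SE 0.15, limma adjusted p = 1.35e-12). S100a6, of the same family, was the most abundant of the named falls and averaged 3544 ± 612 TPM in resistant and 6785 ± 1501 TPM in parental tumors. Sprr1a, a precursor of the cornified envelope, averaged 1.47 ± 1.21 TPM in resistant and 17.6 ± 16.3 TPM in parental tumors, and Cdsn, an adhesive protein of cornified cells, averaged 6.59 ± 2.48 TPM in resistant and 45 ± 29.8 TPM in parental tumors. S100a6, Sprr1a and Cdsn overlapped. Of 50 keratins 4 were tested, of which 3 fell and none rose (0 higher and 2 lower with the GC index in the model). Krt80 led them, at 0.39 ± 0.17 TPM in resistant and 2.76 ± 2.17 TPM in parental tumors. Of 14 epidermal markers 2 were tested and 1 fell, Krt17, at 0.90 ± 0.60 TPM in resistant and 3.72 ± 3.16 TPM in parental tumors and it was not called with the GC index in the model.

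Developmental and germ line genes were among the falls. Foxp2, a forkhead factor, averaged 1.44 ± 1.73 TPM in resistant and 12.6 ± 7.08 TPM in parental tumors. Dlx4, a homeobox factor, was at 0.20, 0.47 and 1.04 TPM in resistant tumors, against 4.56, 6.02 and 11.7 TPM in parental tumors, without overlap. Rhox10, a reproductive homeobox gene, averaged 0.032 ± 0.11 TPM in resistant and 5.48 ± 4.24 TPM in parental tumors. In each of these regulators the highest resistant tumor lay below the parental median. Magea10, of the cancer-testis antigen family, averaged 0.37 ± 0.30 TPM in resistant and 6.70 ± 2.79 TPM in parental tumors, and its lowest parental tumor was listed at 0. Notum, which inactivates Wnt proteins, averaged 0.44 ± 0.46 TPM in resistant and 8.64 ± 8.11 TPM in parental tumors. Both overlapped between the lines.

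The remaining named falls had varied roles. Stac2, an adaptor of calcium channels, averaged 2.22 ± 1.32 TPM in resistant and 20.8 ± 15.7 TPM in parental tumors. Gsta2, a glutathione transferase, averaged 0.17 ± 0.27 TPM in resistant and 7.36 ± 6.59 TPM in parental tumors. Cpne8, a calcium-dependent membrane binder of the copine family, averaged 2.18 ± 1.18 TPM in resistant and 10.3 ± 2.85 TPM in parental tumors. Among these, only Cpne8 separated the lines. Efhc2 averaged 0.16 ± 0.15 TPM in resistant and 6.78 ± 4.39 TPM in parental tumors, and Tmem171 averaged 6.34 ± 1.76 TPM in resistant and 22.9 ± 7.88 TPM in parental tumors, both without overlap.

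**Figure D1:**
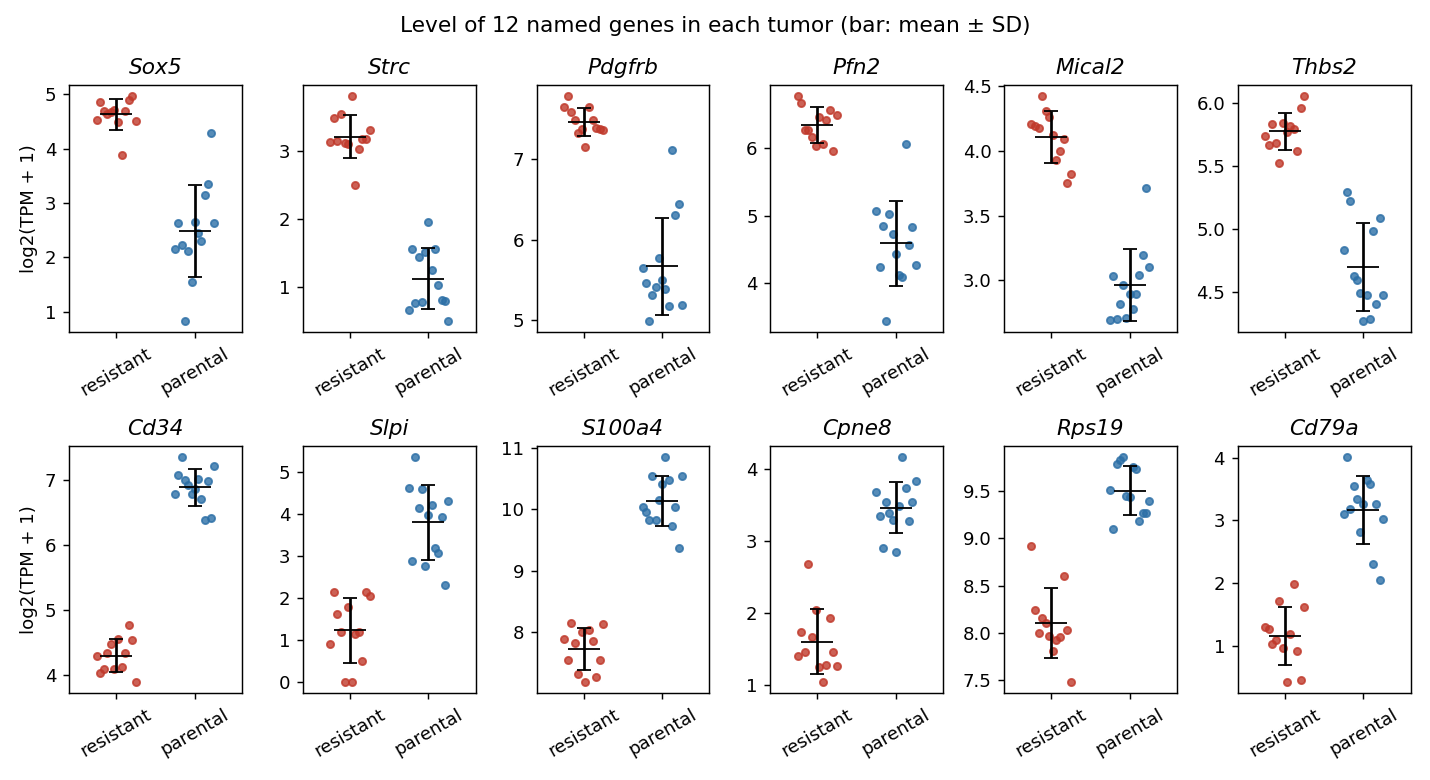
Level of 12 named genes on the log2(TPM + 1) scale in each of the 12 resistant (left) and 13 parental (right) tumors, with the mean ± SD as a bar; sideways spread of the points has no meaning. In Strc, Pdgfrb, Mical2 and Thbs2 every resistant tumor lies above every parental tumor, and in the 6 genes of the lower row, Cd34 to Cd79a, every resistant tumor lies below.

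Promoters were read for short motifs, from 250 bases before to 50 after the start of transcription, as given by RefSeq on GRCm38.p6 and matched by symbol for 9337 of the 12095 genes tested. Both strands were searched, and none of the 4 motifs contains another. Genes higher by 2-fold or more had 118 such promoters, and genes lower by 2-fold or more had 180. The TATA box TATAAA was in 12.7% and 16.7% of these in that order, against 7.06% of all. TGANTCA, the AP-1 site, was in 11.02% and 8.33% of the same sets in that order, against 5.17% of all. The GC box GGGCGG was in 44.1% and 45%, against 64.9% of all. CCAAT was in 43.2% and 38.3%, against 39.2% of all. The sets of all called genes, of any size, lay nearer to the share of all. There TATAAA was in 6.53% of higher and 8.91% of lower promoters, and TGANTCA in 5.29% and 6.99%. GGGCGG was in 65.7% and 58.7% of them, and CCAAT in 38.5% and 39.02%. A match describes letters in the window and not a bound site. Promoters of 3 named genes are shown because they hold these letters. Inhba, which rose, has TATAAA 91 bases before its start. S100a4, which fell, has it 31 bases before. Sprr1a, which fell, has it 43 bases before and TGAGTCA 146 and 116 bases before. Capitals mark these matches, written 5′ to 3′ on the gene's strand.
Inhba (chr13:16011601-16011900, plus strand): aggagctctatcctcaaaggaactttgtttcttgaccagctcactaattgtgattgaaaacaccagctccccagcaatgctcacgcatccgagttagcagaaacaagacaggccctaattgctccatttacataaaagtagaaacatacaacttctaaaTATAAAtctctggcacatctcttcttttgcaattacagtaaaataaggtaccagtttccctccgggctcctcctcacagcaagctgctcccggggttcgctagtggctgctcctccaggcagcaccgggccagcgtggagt
S100a4 (chr3:90603520-90603819, plus strand): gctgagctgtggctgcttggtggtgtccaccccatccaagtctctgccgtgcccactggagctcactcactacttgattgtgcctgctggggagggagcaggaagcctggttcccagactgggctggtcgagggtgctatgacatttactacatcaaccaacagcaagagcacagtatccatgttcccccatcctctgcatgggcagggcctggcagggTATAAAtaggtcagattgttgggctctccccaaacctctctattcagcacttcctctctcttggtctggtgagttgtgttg
Sprr1a (chr3:92485832-92486131, minus strand): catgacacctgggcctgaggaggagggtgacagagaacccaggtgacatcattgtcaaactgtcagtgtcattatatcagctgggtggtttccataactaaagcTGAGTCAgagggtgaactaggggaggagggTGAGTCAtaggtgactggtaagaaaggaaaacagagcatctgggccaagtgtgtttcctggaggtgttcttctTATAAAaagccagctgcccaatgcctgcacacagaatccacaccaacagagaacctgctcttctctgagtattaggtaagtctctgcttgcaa

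Genes for ribosomes and for complex I of the respiratory chain were lower more often than the background. Of 79 cytosolic ribosomal protein genes tested, 7 were higher and 36 lower, with a median log2 difference of -0.23, while 16.3% of all genes were higher and 13.9% lower. Rps19, a small-subunit protein mutated in Diamond-Blackfan anemia, was at 178, 257 and 484 TPM in resistant tumors, against 547, 696 and 932 TPM in parental tumors. The lines did not overlap (log2 difference -1.41, SE 0.12, limma adjusted p = 4.14e-09). Rps27 averaged 4120 ± 1150 TPM in resistant and 6223 ± 1488 TPM in parental tumors. Rpl38 averaged 3083 ± 578 TPM in resistant and 4489 ± 688 TPM in parental tumors, and Rpl19 averaged 2886 ± 479 TPM in resistant and 4286 ± 942 TPM in parental tumors. Rpl36 averaged 3028 ± 339 TPM in resistant and 3761 ± 615 TPM in parental tumors. These 4 are among the most abundant messages of the tumors, and each overlapped between the lines. The family did not move as one, since Rps12 (4156 ± 651 TPM in resistant and 3194 ± 554 TPM in parental tumors) and Rpl4 (2798 ± 500.1 TPM in resistant and 2210 ± 549 TPM in parental tumors) were higher. Without the low-value filter Rpl4 was no longer called, nor was Rpl36 under quantile normalization. Many ribosomal protein genes have near-identical processed copies, and how their reads were assigned is not given in the sources used here. The family summed to 96730 to 120200 TPM in resistant and 112700 to 151200 TPM in parental tumors.

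Complex I, the entry point of the respiratory chain, had the same direction. Of 36 nuclear NDUF subunit genes 1 was higher and 17 were lower, with a median of -0.26, and they summed to 4475 to 5752 TPM in resistant and 5599 to 7228 TPM in parental tumors. Ndufv3 averaged 216 ± 34.8 TPM in resistant and 368 ± 55.4 TPM in parental tumors, and Ndufs6 averaged 104 ± 12.2 TPM in resistant and 153 ± 20.6 TPM in parental tumors. Of 78 mitochondrial ribosomal protein genes 3 were higher and 20 lower (median -0.15). Mrpl33, a small protein of the large subunit, was at 68.4, 92.3 and 128 TPM in resistant tumors, against 143, 216 and 295 TPM in parental tumors, without overlap. In the 3 families, cytosolic, complex I and mitochondrial, the counts were 6 higher and 38 lower, 3 higher and 16 lower and 8 higher and 23 lower with the GC index in the model. Without chromosomes 7, 11 and 17, which hold many lower genes, 18 of 51, 13 of 29 and 12 of 53 were lower. In culture the medians of the 3 families were -0.002, -0.089 and -0.013, with 0, 3 and 7 members lower.

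Transcripts of the mitochondrial genome had a median log2 difference above 0 in tumors, at 0.63. The median was 0.13 with the GC index in the model and 0.20 without the 4 parental tumors of high index. Of the 13 mitochondrial protein genes 7 were tested and 2 were higher. In each of those 2 settings 1 was higher. The cytochrome oxidase subunit mt-Co1 averaged 21910 ± 6186 TPM in resistant and 14360 ± 4589 TPM in parental tumors (log2 difference 0.63, SE 0.17, limma adjusted p = 0.00577), and its call was lost with the GC index in the model, without the 4 parental tumors of high index and under quantile normalization. The complex I subunit mt-Nd6 averaged 16550 ± 4788 TPM in resistant and 9862 ± 3629 TPM in parental tumors. It is encoded on the opposite strand to its neighbours, and with no strand setting stated their reads cannot be told apart. The other 6, mt-Atp6, mt-Atp8, mt-Co2, mt-Co3, mt-Nd3 and mt-Nd4l, are listed at 0 in all 25 tumors. Gapdh, the glycolytic enzyme often used as a standard, averaged 11360 ± 1875 TPM in resistant and 9216 ± 1169 TPM in parental tumors (log2 difference 0.30, SE 0.088, limma adjusted p = 0.0118), and lost its call without the low-value filter and under quantile normalization.

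Some families of protein turnover and chromatin held more higher than lower members, and others did not. Of 41 ubiquitin-specific proteases, which remove ubiquitin from proteins, 16 were higher (background 16.3%) and none lower, also none at an unadjusted p under 0.05 or by the rank-sum test, with a median log2 difference of 0.25. Usp3, which acts on ubiquitinated histones, averaged 131 ± 23.5 TPM in resistant and 61.6 ± 18.1 TPM in parental tumors. Usp7, which stabilizes Mdm2, averaged 158 ± 29.9 TPM in resistant and 102 ± 20.4 TPM in parental tumors, and Usp1, which acts on the Fanconi anemia proteins, averaged 148 ± 24.7 TPM in resistant and 99.7 ± 13.1 TPM in parental tumors. The count was 15 with the GC index in the model and 15 without the 4 parental tumors. Of 24 SWI/SNF subunits, which remodel nucleosomes, 8 were higher and 2 lower (median 0.16), with 8 higher and 0 lower with the GC index in the model. Arid1a averaged 564 ± 85.6 TPM in resistant and 376 ± 83.4 TPM in parental tumors, and Arid2 averaged 43.4 ± 4.24 TPM in resistant and 33.5 ± 4.62 TPM in parental tumors. Among 16 lysine demethylases 6 were higher and 1 lower, and with the index in the model 4 higher and 1 lower. The lowest adjusted p there was that of Kdm5b, at 16.5 ± 3.32 TPM in resistant and 8.12 ± 4.44 TPM in parental tumors. Histone genes had 6 higher and 9 lower of 62, histone deacetylases and sirtuins 0 and 1 of 17, and proteasome subunits 9 and 5 of 42, which became 7 higher and 12 lower, 2 higher and 0 lower and 14 higher and 6 lower with the index in the model.

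Families of transcription factors differed in direction, against a background of 16.3% higher and 13.9% lower. Of 26 HOX genes, which set position along the body, 8 were higher and 2 lower (median 0.16), with 6 higher and 0 lower with the GC index in the model. The 4 with the lowest adjusted p were Hoxc5, Hoxc10, Hoxc6 and Hoxc8, neighbours in the Hoxc cluster. Hoxc5 averaged 5.83 ± 1.54 TPM in resistant and 2.44 ± 1.44 TPM in parental tumors, and Hoxc10 averaged 16.4 ± 5.80 TPM in resistant and 6.27 ± 2.82 TPM in parental tumors. Hoxc6 averaged 24.8 ± 4.91 TPM in resistant and 14.9 ± 5.13 TPM in parental tumors. Nuclear receptors had 9 higher and 4 lower of 29, and 10 higher and 2 lower with the index in the model. The orphan receptor Nr2f2 averaged 86.2 ± 20.1 TPM in resistant and 35.7 ± 14.7 TPM in parental tumors, and the estrogen receptor Esr1 averaged 11.3 ± 2.45 TPM in resistant and 5.32 ± 2.44 TPM in parental tumors. The vitamin D receptor Vdr fell, and averaged 9.69 ± 3.38 TPM in resistant and 26.9 ± 11.3 TPM in parental tumors. Kruppel-like factors had 1 higher and 4 lower of 13, and 2 higher and 6 lower with the index in the model. Of 304 zinc finger ZFP genes 19.1% were higher and 7.89% lower. Without the 4 parental tumors of high index 13.2% were higher and 5.59% lower, where 1713 of all 12095 genes were higher and 1629 lower. In both settings the share of higher genes was near the background and that of lower genes was below it. Outside these factors, 27 kinesins, the motors of microtubules, had 7 higher and 1 lower, and 62 heat shock and DNAJ chaperones 12 and 2, which became 10 higher and 0 lower and 17 higher and 5 lower with the index in the model.

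Lists of lysosomal proteins, lipid mediators and some channels held more lower than higher members. Of all genes tested, 16.3% were higher and 13.9% lower. Of 22 lysosome genes 7 were lower and none higher by limma, with 3 higher at an unadjusted p under 0.05, 0 by the rank-sum test, and 2 higher and 6 lower with the GC index in the model. Of 11 cathepsins, the lysosomal proteases, 1 was higher and 6 lower (0 higher and 7 lower with that index). Ctsh, of this family, averaged 69.7 ± 14.3 TPM in resistant and 131 ± 28.2 TPM in parental tumors. Of 16 prostaglandin and leukotriene genes 1 was higher and 5 lower (1 higher and 6 lower with the index). Alox5ap, which presents arachidonic acid to 5-lipoxygenase, averaged 16.9 ± 4.603 TPM in resistant and 48.6 ± 17.4 TPM in parental tumors, and the cyclooxygenase Ptgs1 averaged 3.48 ± 1.87 TPM in resistant and 9.21 ± 4.03 TPM in parental tumors. Of 9 sodium and calcium channel genes 1 was higher and 5 lower, which became 0 higher and 3 lower with the index. TRP channels had 1 higher and 0 lower of 10, and autophagy genes 4 and 3 of 19, which became 2 higher and 0 lower and 2 higher and 4 lower with the index. Sialyltransferases, which add sialic acid to glycans, had 4 lower of 10, but 1 with that index.

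Integrins and p53 targets were mixed, beside a background of 16.3% higher and 13.9% lower. Of 20 integrins 5 were higher and 7 lower, the same counts as with the GC index in the model. Itgb4, the hemidesmosome integrin, averaged 1.66 ± 0.60 TPM in resistant and 50.2 ± 30.4 TPM in parental tumors, and its epithelial relative Itga3 averaged 4.28 ± 1.72 TPM in resistant and 14.9 ± 6.90 TPM in parental tumors, whereas the collagen receptor Itga1 averaged 8.25 ± 1.88 TPM in resistant and 4.14 ± 1.27 TPM in parental tumors. Of 21 p53 targets 2 were higher and 6 lower, and 2 higher and 3 lower with the GC index in the model. Cdkn1a, the cell cycle inhibitor p21, averaged 50.99 ± 9.21 TPM in resistant and 77.8 ± 28.4 TPM in parental tumors.

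Levels of immune cell markers stood beside these falls. The background over all genes tested was 16.3% higher and 13.9% lower. Of 14 macrophage markers 1 was higher and 12 were lower, and the list summed to 835 to 1506 TPM in resistant and 874 to 4361 TPM in parental tumors. Apoe, a lipid carrier abundant in macrophages, averaged 578 ± 126 TPM in resistant and 1718 ± 749.6 TPM in parental tumors, and the complement protein C1qa averaged 94.1 ± 19.6 TPM in resistant and 216 ± 66.1 TPM in parental tumors. Of 12 pan-leukocyte markers 8 were lower, and of 5 B cell markers 4. With the GC index in the model, the lower markers numbered 10 for macrophages, 11 for leukocytes and 4 for B cells. None of 8 T cell markers tested was called by limma, with 0 higher and 1 lower at an unadjusted p under 0.05, 0 by the rank-sum test and 2 lower with the GC index in the model. Their 10 listed members summed to 14.1 to 51.7 TPM in resistant and 7.07 to 73.6 TPM in parental tumors. The part of these cells in the lysosome, cathepsin and lipid mediator differences was not tested. Cultures, which hold no host cells, had Ctsh at 1.76 TPM in resistant cultures and 12.4 TPM in parental cultures. Alox5ap was at 0.80 TPM in resistant cultures and 7.94 TPM in parental cultures. The lists were mixed there. Of 22 lysosome genes tested in culture 2 were higher and 1 lower, of 8 cathepsins 1 and 1, and of 9 prostaglandin and leukotriene genes 0 and 2. Skeletal muscle markers, which can enter with tissue under the skin, were higher in 3 of 9 by limma and in 0 by the rank-sum test, in 4 with the GC index in the model and in 2 without the 4 parental tumors. They summed to 6.24 to 236 TPM in resistant and 11.5 to 75.0 TPM in parental tumors.

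Granzymes, the serine proteases of cytotoxic granules, gave the largest median among the runs of neighbouring genes. The 6 neighbours from Gzme to Gzmb on chromosome 14, all lower, had a median log2 difference of -2.12, and none was high enough to test in culture. Gzmb, the granzyme best known from killer T cells, was at 14.02, 23.6 and 33.4 TPM in resistant tumors, against 13.5, 39.5 and 70.9 TPM in parental tumors. The lines overlapped (log2 difference -0.79, SE 0.20, limma adjusted p = 0.0039).

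**Figure D2:**
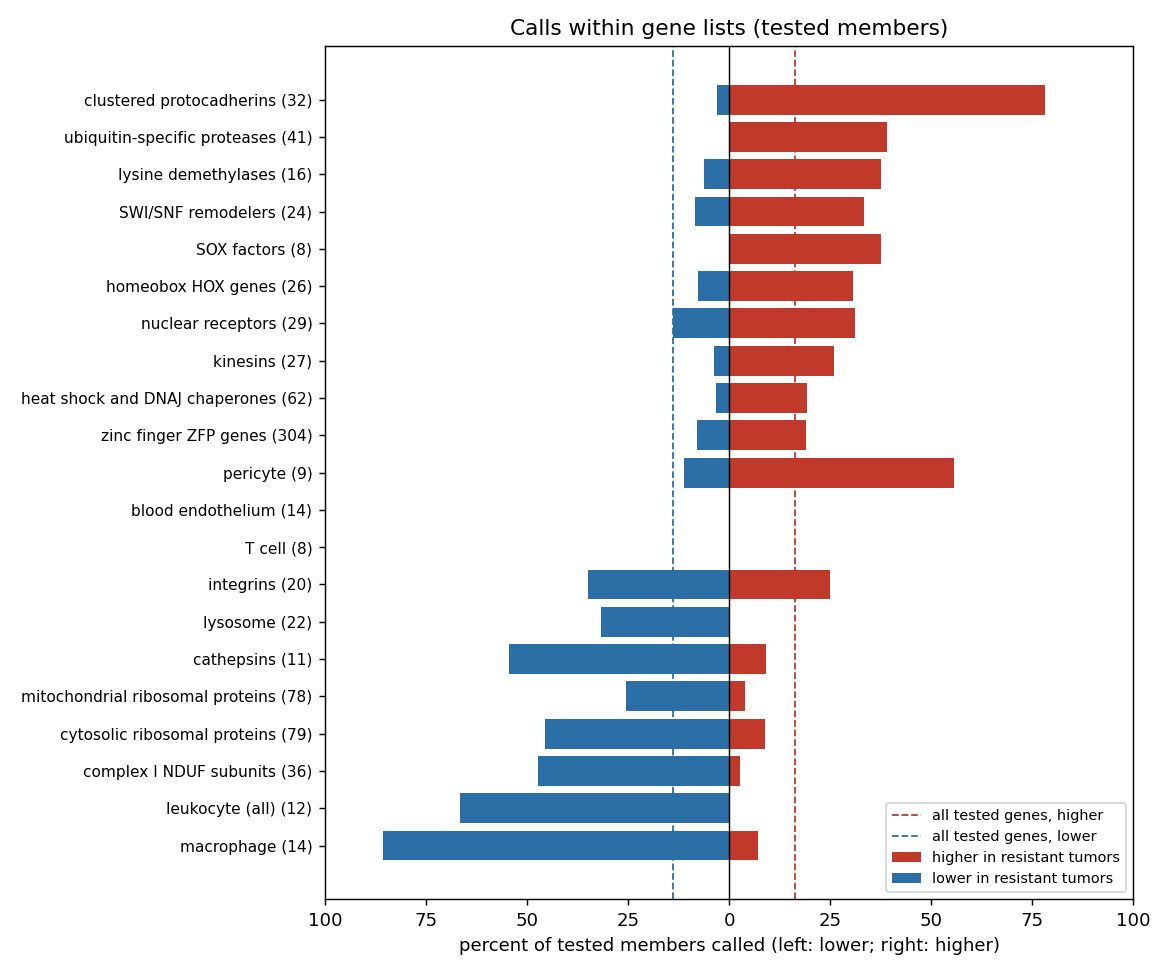
Share of tested members called higher (right) or lower (left) in resistant against parental tumors for 21 gene lists, with the number of tested members in parentheses and dashed lines at the shares over all 12095 genes, 16.3% higher and 13.9% lower. Among these lists, clustered protocadherins reach furthest to the higher side and macrophage markers furthest to the lower side. The protocadherin share is no support for a direction, because low members could pass the filter through the 12 resistant tumors alone.

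Direction also followed the build of the transcript. By median transcript length in GENCODE M21, 29.6% of the 334 genes of 5000 bases or more were higher and 6.89% lower, while 12.9% of the 2402 genes under 750 bases were higher and 19.6% lower. With the GC index in the model, 22.8% of the longest class were higher and 10.5% lower, and 15.2% of the shortest class were higher and 20.6% lower. The contrast between the classes was smaller and had the same direction. By GC content, 26.1% of genes under 42% GC were higher and 4.33% lower, against 7.66% and 21.1% of genes at 55% or more. With the index in the model, 15.9% of GC-poor genes were higher and 12.3% lower, against 17.3% and 15.7% of GC-rich genes. The index was computed from the levels of such genes in these same tumors. A smaller contrast over GC content therefore follows from its definition and is not a result. Families described above differ in length, with a median of 628 bases in cytosolic ribosomal proteins, 1836 in ubiquitin-specific proteases and 4176 in clustered protocadherins. The part of transcript length in each family's difference was not tested.

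**Figure D3:**
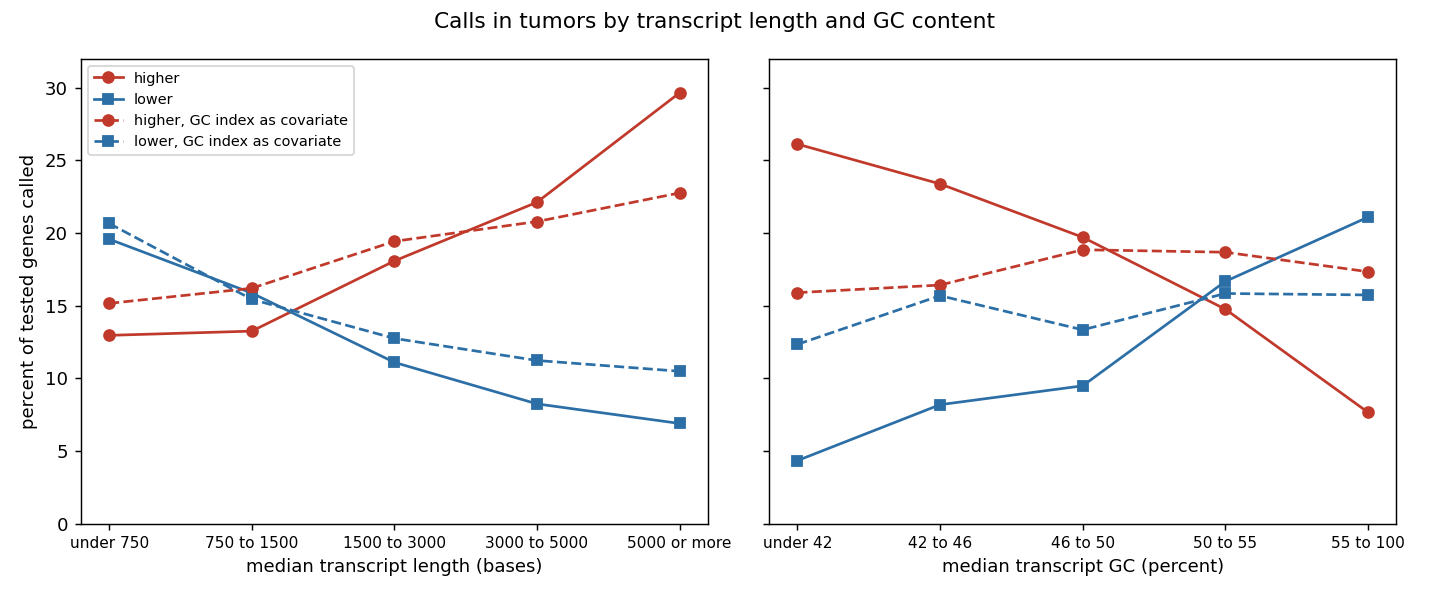
Percent of tested genes called higher or lower in resistant against parental tumors, by median transcript length (left) and GC content (right), without the GC index in the model (solid) and with it (dashed). With the index the slopes over GC content flatten, which follows from its definition by GC-rich and GC-poor genes of these tumors. Over length the longest class has 22.8% higher and 10.5% lower with the index.

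Calls were uneven between chromosomes, which were taken from GENCODE M21 by symbol and used only for order and neighbours. On chromosome 18, 123 of 313 genes tested were higher (39.3%) and 13 lower (4.15%), with a median log2 difference of 0.31. Chromosome 6 had 188 of 594 higher and 65 lower, with a median of 0.17. On chromosome 11 the balance was reversed, with 77 of 1005 higher (7.66%) and 261 lower (26.0%). Chromosome 17 had 50 of 596 higher and 119 lower, and chromosome 7 had 99 of 922 higher and 229 lower. The medians of chromosomes 18, 6 and 11 were 0.23, 0.14 and -0.12 with the GC index in the model, and 0.26, 0.18 and -0.11 in culture. Chromosomes 17 and 7 had -0.048 and -0.043 with the index, and -0.19 and 0.002 in culture. A low culture median was not particular to chromosomes 11 and 17. Chromosomes 2, 5, 10 and 13 had -0.14, -0.14, -0.13 and -0.31 in culture, against 0.035, -0.015, 0.1 and 0.028 in tumors. Over all chromosomes other than 6, 7, 11, 17 and 18, 16.5% of 8474 genes were higher and 11.4% lower.

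The level of a chromosome's genes also differed tumor by tumor. Relative to each gene's mean over the 25 tumors on the log2 scale, the median over chromosome 18 in the lowest, median and highest tumor was 0.12, 0.17 and 0.22 in resistant tumors, against -0.32, -0.11 and 0.13 in parental tumors. The highest parental tumor lay just inside the resistant range. On chromosome 11 it was -0.15, -0.057 and 0.01 in resistant tumors, against 0.003, 0.085 and 0.15 in parental tumors. The ranges of the lines there barely overlapped.

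**Figure D4:**
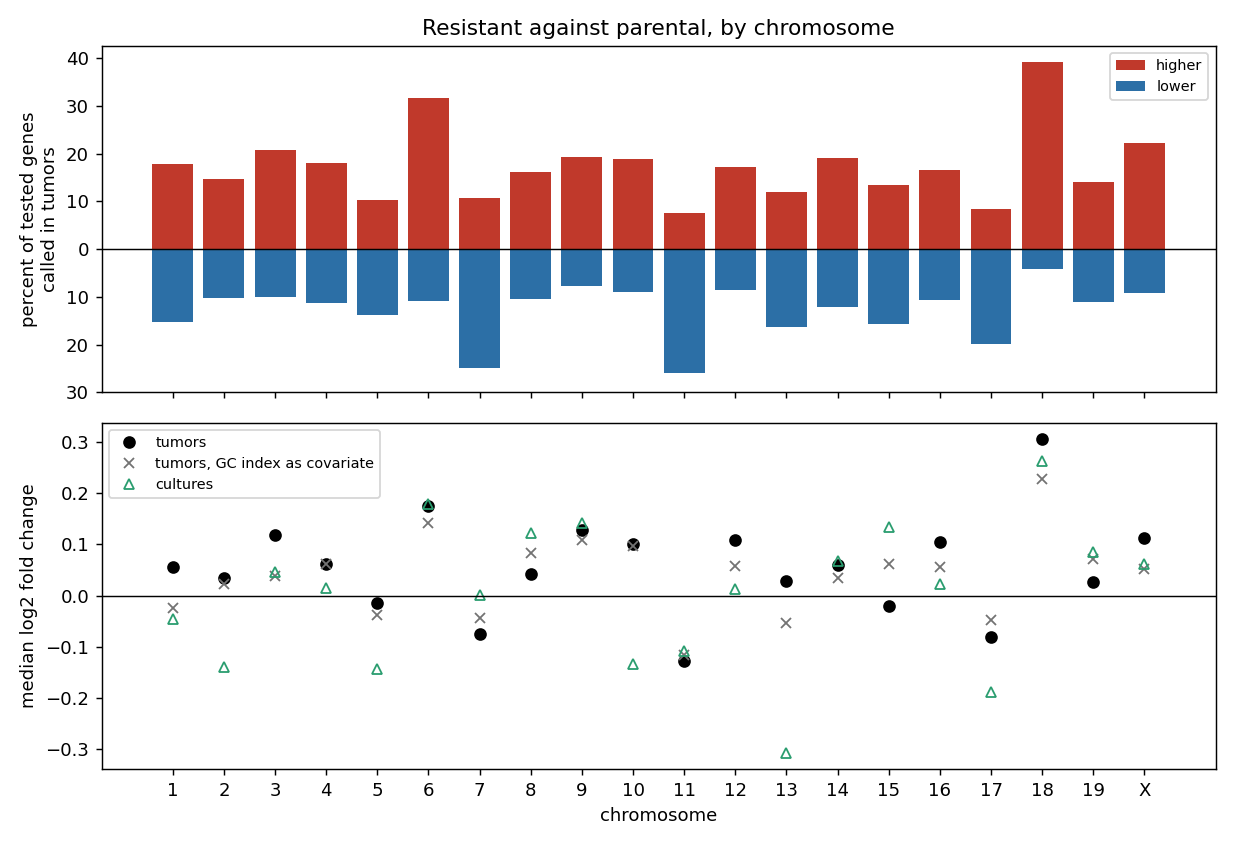
By chromosome, the percent of tested genes called higher (up) or lower (down) in resistant against parental tumors (top), and the median log2 fold change in tumors, in tumors with the GC index in the model and in cultures (bottom). Chromosomes 18 and 6 stand highest in tumors, at 0.31 and 0.17, and chromosome 11 lowest, at -0.13.

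Within chromosomes the shifts came in stretches. In 477 blocks of about 25 neighbouring tested genes, 24 blocks had a tumor median of 0.3 or more and 20 a median of -0.3 or less. Of the 24, 8 lay on chromosome 18, 4 on chromosome 6, 3 on chromosome 3 and 3 on chromosome 4. Of the 20, 11 lay on chromosome 7, 8 on chromosome 11 and 1 on chromosome 1. The culture median had the same sign in 23 of the 24 and 19 of the 20 blocks. These blocks were chosen by their tumor medians, and the same share over all 477 blocks was not counted. Of single genes tested in both settings, 63.9% had the same sign.

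The start of chromosome 7 held such a stretch. Its first 12 blocks, from Myadm to Pdcd2l, held 300 genes, of which 5 were higher and 148 lower (49.3%), with a median log2 difference of -0.41 in tumors and -0.25 in culture. The other 622 genes of the chromosome had 15.1% higher and 13.0% lower, with medians of 0.071 in tumors and 0.12 in culture. The boundary was chosen after the block values were seen, so the stretch is a description. The median level over its genes in the lowest, median and highest tumor was -0.40, -0.22 and -0.055 in resistant tumors, against -0.052, 0.14 and 0.45 in parental tumors. The lines did not overlap, by a narrow gap. The stretch is GC-rich, with a median GC content of 56.2%, and 120 of its genes were lower with the GC index in the model, with a median of -0.27. Rps19 and Cd79a, both named falls, are neighbours in this stretch. It also holds Cic, a transcriptional repressor (223 ± 48.0 TPM in resistant and 351 ± 53.1 TPM in parental tumors), and Gsk3a, a kinase of glycogen and Wnt control (39.0 ± 5.73 TPM in resistant and 55.7 ± 9.47 TPM in parental tumors).

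The far part of chromosome 6 ran higher. After its first 14 blocks, another boundary chosen after the values were seen, 112 of 244 genes were higher (45.9%) and 22 lower, with medians of 0.31 in tumors and 0.39 in culture. Of the same genes, 110 were higher with the GC index in the model. A row of 9 neighbours there, from Ints13 to Klhl42, was higher by a median of 0.76, and all 9 were above 0 in culture. On chromosome 14, 8 neighbours from Ero1l to Cnih1 were higher by a median of 0.85, all 8 were above 0 in culture, and 7 were called there. Ero1l, an oxidase of the endoplasmic reticulum, averaged 226 ± 83.1 TPM in resistant and 132 ± 55.4 TPM in parental tumors, and Cnih1, a cargo receptor, averaged 411 ± 100.1 TPM in resistant and 221 ± 99.7 TPM in parental tumors. Chromosome 13 had a median of 0.028 in tumors but -0.31 in culture.

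**Figure D5:**
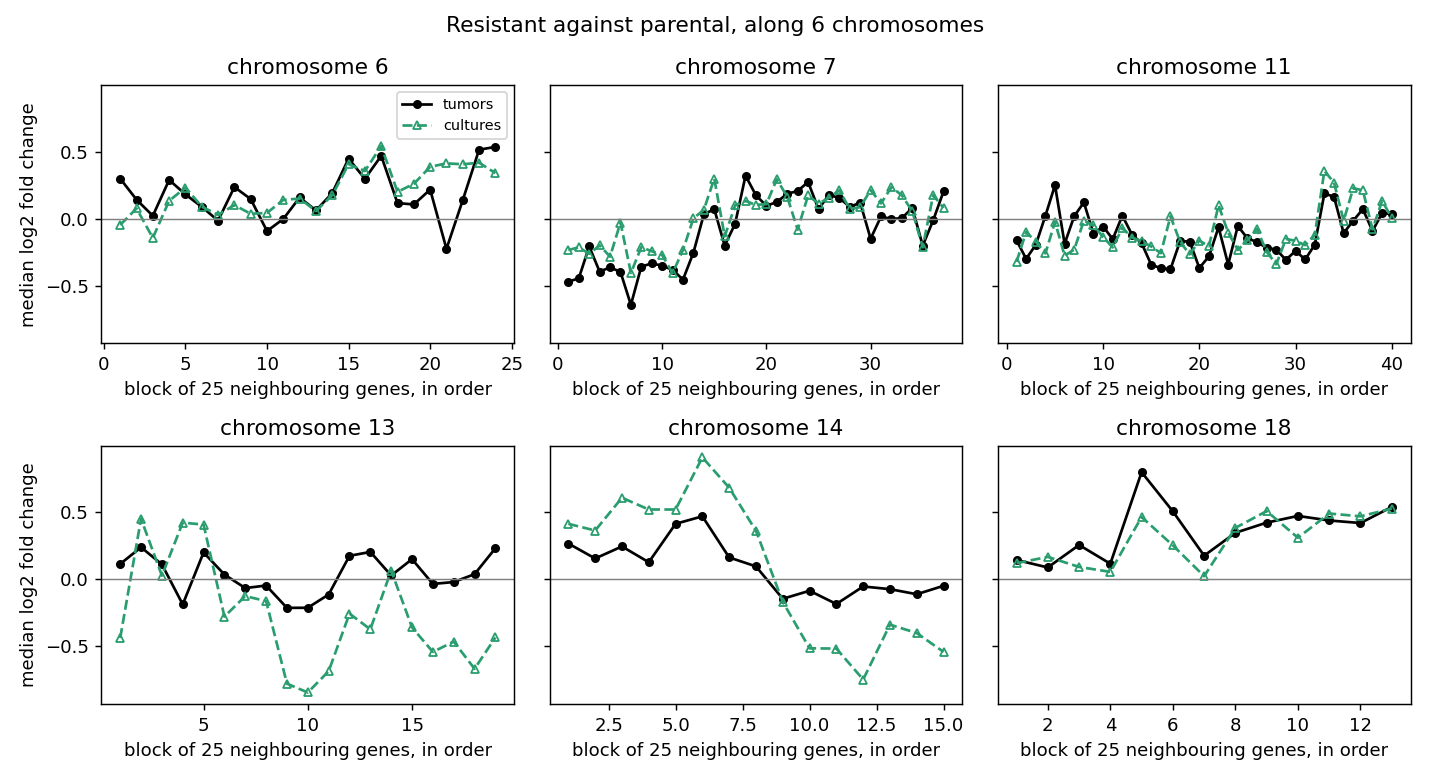
Median log2 fold change, resistant minus parental, in blocks of about 25 neighbouring tested genes along chromosomes 6, 7, 11, 13, 14 and 18, in tumors (filled, solid) and cultures (open, dashed). The first 12 blocks of chromosome 7 lie below 0 in tumors and in cultures, and the blocks of chromosome 18 lie above 0 in both.

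Clustered protocadherins, neuronal adhesion molecules, are encoded in arrays on chromosome 18. Of 57 in the tables, 32 reached 1 TPM in 12 or more tumors, and of these 25 were higher and 1 lower, with 24 higher and 1 lower with the GC index in the model. This count is no support for a direction, because a low member could pass that filter through the 12 resistant tumors alone. Of the 32, 6 reached 1 TPM in 12 or more parental tumors, and of these 3 were higher and 1 lower. All 57 summed to a median of 269.5 TPM (range 246 to 327) in resistant tumors and 249.5 TPM (range 133 to 305) in parental tumors, so the totals overlapped widely. In culture they averaged 148 TPM in resistant and 149 TPM in parental cells, and 0 of 13 tested there were called by limma, with 6 higher and 0 lower at an unadjusted p under 0.05. Pcdhgb1 was at 12.8, 15.3 and 23.7 TPM in resistant tumors, against 0.94, 3.57 and 9.55 TPM in parental tumors. The lines did not overlap (log2 difference 1.98, SE 0.20, limma adjusted p = 4.12e-08). Pcdhb15 averaged 6.06 ± 1.26 TPM in resistant and 1.44 ± 0.87 TPM in parental tumors, and Pcdhb18 averaged 4.86 ± 1.26 TPM in resistant and 1.27 ± 0.81 TPM in parental tumors. Members of the gamma cluster share their last exons, so how reads were divided among them is uncertain. Without the clusters, chromosome 18 had 98 of 281 genes higher and 12 lower, with a median of 0.27, Pdgfrb and Zfp532 among the higher ones. Of 14 cadherins tested outside the clusters 5 were higher and 2 lower, and 4 higher and 3 lower with the GC index in the model. The atypical cadherin Fat1 averaged 65.0 ± 8.85 TPM in resistant and 33.5 ± 9.502 TPM in parental tumors.

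Set beside the cultures, which share no library with them, the tumor differences mostly had the same direction. Of the 1969 higher genes 1851 were tested in culture, and 76.3% had the same sign there. Of the 1678 lower genes 1438 were tested, and 79.1% had the same sign, against 63.9% of the 10900 genes tested in both. Among calls of 2-fold or more, 86.4% of the rises and 86.7% of the falls had the same sign. In culture 6.15% of genes were called higher and 8.04% lower. Of the tumor calls, 336 higher and 362 lower genes were called in the same direction in culture, and 15 higher and 23 lower ones in the opposite direction. These counts rest on 2 parental cultures. The 336 became 100 without parental culture 1, 164 without parental culture 2 and 208 without resistant culture 4, and the 362 became 135 and 125 without parental cultures 1 and 2.

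Genes that the cultures did not express were less often higher. Of 332 genes tested in tumors and under 0.1 TPM in every culture, 6.63% were higher and 18.7% lower, with a median log2 difference of -0.18. Of the 11149 at 1 TPM or more in a culture, 16.9% were higher and 13.4% lower. The 332 genes summed to 1769 TPM in resistant and 2441 TPM in parental tumors. Of the 25 named rises 23 were tested in culture, where 19 had the same sign and 13 were called, and of the 25 named falls 24 were tested, where 19 had the same sign and 9 were called. The line difference itself differed between tumor and culture in 5 named rises and 5 named falls, by an interaction term that was past the threshold in 4.13% of 14664 genes. The named genes were chosen from calls of the tumor difference, which is part of that term. Their share therefore cannot be weighed against that of all genes.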

How the data were processed

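Polyadenylated RNA of 25 tumors and 7 cultures was sequenced from libraries made with the KAPA RNA HyperPrep kit, per the labels' protocols. The authors deposited TPM values per gene symbol, and the submitters' processing notes name STAR and GRCh38. That is a human build, although the symbols are those of mouse genes, and the quantifier and strand setting are not given in the sources used here. TPM keeps no read total, and how deeply each library was sequenced is therefore unknown.

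From these values limma 3.58.1 (R 4.3.3) compared log2(TPM + 1) between the lines, with a mean-variance trend, two-sided tests and Benjamini-Hochberg adjustment over all genes tested, at 0.05. Tumor genes needed 1 TPM in 12 tumors, and culture genes 1 TPM in 2 cultures. A pseudocount of 1 understates the change of low genes. An interaction term over 32 libraries compared tumors with cultures. Steps across genes were tested on simulated data. Length, GC content and chromosome came from GENCODE M21, matched by symbol.

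Named genes were, in each direction and at 5 TPM or more in the higher line, ranks 11 to 25 by size, 5 further genes by lowest adjusted p and 5 by level. Of lists, up to 4 tested members by lowest adjusted p were named, and of runs of neighbours their members, at any level and size, so a few rank above 11 or lie under 5 TPM. Cdh1 was named for the check of the cell type. Gene models without an established symbol and Y-linked genes were not named. Members and lists were chosen with earlier results of these data known. Alternatives were a pseudocount of 0.1, a filter at 5 TPM and none, median-of-ratios and quantile scaling, removal of mitochondrial genes, array weights, a rank-sum test, omission of single libraries, and a model term for the GC index. The effect of scaling and of the GC index on lists and chromosomes was added after the data were seen. Lists were described by counts beside all genes tested, with no set test.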

Additional observations from a re-analysis of the deposited data

Results flagged for a closer look

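In 10 of the 50 named genes the line difference in tumors differed from that in culture, by the interaction term of a fit over all 32 libraries. These genes were chosen from calls of the tumor difference, which is part of that term, so the count of 10 is a description. The values below are that difference of differences on the log2(TPM + 1) scale, so a positive one means that resistant minus parental was larger in tumors than in culture. The cultures number 5 resistant and 2 parental libraries, so each culture mean rests on few samples, and the cause of these differences was not tested.

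Ank1, Flrt3 and Thsd7a rose in tumors with no like difference in culture. Ank1 had an interaction of 1.35 (limma adjusted p = 0.0107), averaging 5.01 TPM in resistant and 1.45 TPM in parental tumors and 0.65 TPM in resistant and 0.65 TPM in parental cultures. Flrt3 had 2.01 (limma adjusted p = 0.0154), at 6.995 TPM in resistant and 1.40 TPM in parental tumors and 7.87 TPM in resistant and 8.24 TPM in parental cultures. Thsd7a had 2.25 (limma adjusted p = 0.00234), at 8.78 TPM in resistant and 1.42 TPM in parental tumors, and was near 0 in culture, at 0.21 TPM in resistant and 0.42 TPM in parental cultures. Inhba and Pfn2 were higher in both settings and more so in culture. Inhba had -2.28 (limma adjusted p = 0.000291), at 96.6 TPM in resistant and 29.9 TPM in parental tumors and 58.3 TPM in resistant and 3.06 TPM in parental cultures. Pfn2 had -2.57 (limma adjusted p = 0.000302), at 81.4 TPM in resistant and 25.5 TPM in parental tumors and 171 TPM in resistant and 7.18 TPM in parental cultures.

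Among the falls, Dlx4 was lower in resistant tumors, and its culture difference of -1.06 did not pass the threshold (limma adjusted p = 0.0954), with an interaction of -1.30 (limma adjusted p = 0.0163), averaging 0.46 TPM in resistant and 6.71 TPM in parental tumors and 0.23 TPM in resistant and 1.48 TPM in parental cultures. The other 4 were lower in resistant tumors while the resistant culture mean was above the parental one. Slpi had -3.28 (limma adjusted p = 0.0101), at 1.62 TPM in resistant and 15.4 TPM in parental tumors and 10.3 TPM in resistant and 4.98 TPM in parental cultures. Notum had -3.19 (limma adjusted p = 0.0441), at 0.44 TPM in resistant and 8.64 TPM in parental tumors and 3.06 TPM in resistant and 0.18 TPM in parental cultures. Magea10 had -2.77 (limma adjusted p = 0.00864), at 0.37 TPM in resistant and 6.70 TPM in parental tumors and 1.84 TPM in resistant and 0.64 TPM in parental cultures. Cd79a had -2.61 (limma adjusted p = 0.000473), at 1.34 TPM in resistant and 8.497 TPM in parental tumors and 1.53 TPM in resistant and 0.55 TPM in parental cultures.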

How the results depend on the processing

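Counts of called genes in tumors stayed within 1.5 times the reported 1969 higher and 1678 lower under the 10 other settings tried, which ranged from 1713 to 2304 higher and from 1375 to 1958 lower. Without each tumor in turn they were 1723 to 2122 higher and 1515 to 1751 lower. The higher share of the calls, 53.99% as reported, ran from 48.75% under median-of-ratios scaling to 60.71% with mitochondrial genes removed, and the median over all genes moved by at most 0.041 between scalings. Culture counts depended on single libraries. Leaving out 1 culture at a time gave 213 to 921 genes higher (689 as reported) and 242 to 1201 lower (901), the lowest without parental cultures 1 and 2, and 450 and 420 higher without resistant cultures 3 and 4. Tumor calls found again in culture were then 100 to 421 higher (336) and 125 to 480 lower (362). A lone parental culture left in this way is assumed to vary like the resistant ones. Of 1734 values of the 50 named genes under the alternatives, 1727 kept their direction and call, 7 lost the call and 0 changed direction. The call was lost for mt-Co1 with the GC index in the model (0.26), under quantile normalization (0.285) and without the 4 parental tumors of high index (0.404). It was lost for Gapdh without the filter (0.295) and under quantile normalization (0.112), for Rpl4 without the filter (0.351) and for Rpl36 under quantile normalization (-0.167). The causes were not tested. No paired analysis was possible because the labels do not pair tumors and the replicate numbers follow accession order. With no read totals, the depth behind low values is unknown.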
